A study of Homo sapiens with 4 samples.

Results

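The RNAs described here are snoRNAs and scaRNAs of 111 to 450 bases found in small extracellular vesicles, the small membrane-bound particles that cells release. The vesicles came from HT29 cells, a widely used line derived from a human colon adenocarcinoma that carries a mutant p53. Members were chosen from the annotation and the counts. A feature was taken when its type was snoRNA or guide RNA, when it had a single interval of 111 to 450 bases, and when its counts summed to 10 or more over all libraries. In all, 108 features met this rule, of 759 of that type and length and of 155642 features in the table. Of the 759, 536 had no count in any library and 115 had 1 to 9 counts. The counts used to choose members were summed over both groups, so the sums are a description, and the difference between groups was not part of the choice.

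The study compared 2 groups of 2 small RNA libraries. NTSH libraries came from vesicles of HT29 cells with a non-targeting shRNA, and Shp53 libraries from vesicles of HT29 cells with an shRNA that targets p53, a DNA-binding tumour suppressor. All cells were at passages 5 to 15, and total vesicle RNA was sequenced after selection of inserts of 18 to 40 nt. Every count on a member is thus a count of a fragment, and the amount of intact snoRNA was not measured. The labels name replicates without saying whether they are separate cultures, and p-values here therefore reflect spread among these samples alone, which may be technical. Fewer vesicles and less RNA per vesicle cannot be told apart in such libraries, and the knockdown of p53 itself was not analysed here.

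Box H/ACA snoRNAs fold into hairpins followed by an H box and an ACA box, bind dyskerin, NHP2, NOP10 and GAR1, and guide the conversion of uridine to pseudouridine in ribosomal RNA. Box C/D snoRNAs, most of which are shorter, carry a C box and a D box near their ends, bind fibrillarin and its partners, and guide methylation of the ribose. The scaRNAs are guides of either kind, or of both kinds joined, that gather in Cajal bodies and act on the snRNAs of the spliceosome. In human cells most of these RNAs are cut from introns of host genes, many of which encode proteins of translation.

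The members on which the results turn are shown first, 5′ to 3′, from GENCODE 29 transcripts on GRCh38. SNORD67 (chr11:46762389-46762499, minus strand) and SNORD89 (chr2:101272936-101273049, minus strand) lead the C/D members, and capitals mark TGATGA, a form of the C box, and the last CTGA, the D box. SNORA3A (chr11:8684227-8684356, plus strand), SCARNA22 (chr4:1974636-1974760, plus strand), SNORA46 (chr16:58548499-58548633, minus strand) and SNORA7A (chr3:12840312-12840450, minus strand) are H/ACA members that were high, or differed most between libraries, and capitals mark the ACA 3 bases from the end. SNORA8 (chr11:93732361-93732499, minus strand) is shown for comparison with the RF00393 copy (chr17:67271469-67271607, plus strand), the member with the most counts, in which capitals mark the bases that do not match SNORA8.
SNORD67: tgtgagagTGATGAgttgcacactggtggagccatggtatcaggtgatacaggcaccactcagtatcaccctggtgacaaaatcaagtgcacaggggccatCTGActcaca
SNORD89: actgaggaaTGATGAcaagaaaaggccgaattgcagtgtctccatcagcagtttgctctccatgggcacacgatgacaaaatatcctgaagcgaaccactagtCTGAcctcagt
SNORA3A: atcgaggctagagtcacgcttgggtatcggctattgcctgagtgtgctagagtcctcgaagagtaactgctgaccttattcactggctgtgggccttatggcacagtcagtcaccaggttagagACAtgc
SCARNA22: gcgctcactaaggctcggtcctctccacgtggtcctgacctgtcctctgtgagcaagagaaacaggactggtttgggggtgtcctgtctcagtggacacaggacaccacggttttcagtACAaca
SNORA46: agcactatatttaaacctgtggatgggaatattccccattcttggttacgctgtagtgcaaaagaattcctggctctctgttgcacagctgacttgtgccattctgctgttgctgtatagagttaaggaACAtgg
SNORA7A: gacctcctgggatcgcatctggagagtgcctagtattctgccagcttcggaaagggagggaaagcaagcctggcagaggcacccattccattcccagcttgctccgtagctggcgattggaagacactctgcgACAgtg
SNORA8: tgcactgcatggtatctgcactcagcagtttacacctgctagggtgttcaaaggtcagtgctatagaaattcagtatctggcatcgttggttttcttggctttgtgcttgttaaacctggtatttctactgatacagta
RF00393 copy: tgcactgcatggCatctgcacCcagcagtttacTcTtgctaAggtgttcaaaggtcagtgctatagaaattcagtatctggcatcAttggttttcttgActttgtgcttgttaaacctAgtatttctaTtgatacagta

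Length did not select box H/ACA RNAs alone. By the name of each member, or of the named gene nearest to it in sequence, 89 members were of the H/ACA class, 13 of the C/D class and 2 mixed, and 4 had no class. A sequence was read for 97 of the 108 members. An ACA stood 3 bases from the 3′ end in 74 of 84 H/ACA members, in 0 of 11 C/D members and in 0 of 2 mixed members. TGATGA in the first 25 bases together with CTGA in the last 25 stood in 7 of 11 C/D members, in both mixed members and in 1 H/ACA member. Both searches were made on the strand of the RNA. For comparison, the ACA stood in 51.7% of 542 GENCODE snoRNA and scaRNA genes of 111 to 450 bases and in 6.03% of 448 shorter ones, and the C and D motifs in 2.21% and 48.0%. SNORD67, the member with the highest mean level, lay exactly at the lower limit of 111 bases, and the nearest feature outside it, SNORD23 of 110 bases, had 25, 16, 50 and 31 counts in NTSH replicates 1 and 2 and Shp53 replicates 1 and 2. At the limit on counts, SNORA40B (0, 0, 1 and 9 counts in the same order) was just inside with a sum of 10, and an RF00568 copy on chromosome 9 (1, 1, 5 and 2 counts) was just outside.

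The libraries held 1099694 and 938754 counts in NTSH replicates 1 and 2 and 2611032 and 1940942 in Shp53 replicates 1 and 2. TMM scaling factors were 0.637, 1.12, 1.13 and 1.25, so NTSH replicate 1 stood apart, and its CPM (each count divided by the library's counts on tested features times this factor, on a common scale) are raised against its raw shares. A feature all of whose bases are covered by other features, strand ignored, had no count anywhere in the table, which held for 220 of the 759 features of this type and length. A count of 0 on such an RNA therefore says nothing of its level. Of the members, 101 lay on bases of their own throughout and 7 were partly covered. No source used here states whether counting used strand, so fragments of a member and of its host gene or an antisense gene cannot be told apart. Of 9 hairpins of microRNAs of the intestinal epithelium only 4 had bases of their own, and these held 4 counts in all, so the cell type could not be checked by them. Of 5 hairpins of blood microRNAs 1 had bases of its own, and the 5 held 2 counts. Of 2 muscle hairpins 1 had such bases, and the 2 held 0 counts. The 1 liver and 2 mesenchyme hairpins had 0 such bases, so their counts of 0 say nothing.

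Members held 2.12% and 0.996% of all counts in NTSH replicates 1 and 2 and 1.71% and 0.457% in Shp53 replicates 1 and 2. The mean was 1.56% ± 0.794 in NTSH and 1.08% ± 0.883 in Shp53 (SD, n = 2), the groups overlapped, and the two-sided exact permutation test gave p = 0.667. The spread within a group was larger than the difference between groups: replicate 1 held 2.13 times the share of replicate 2 in NTSH and 3.73 times in Shp53. Of counts on all snoRNA and guide RNA features, members held 66.8% and 69.2% in NTSH and 67.5% and 46.8% in Shp53. The other share lay mainly on the 61 snoRNAs under 111 bases that passed the same count sum, which held 1.02% and 0.407% of NTSH counts and 0.793% and 0.502% of Shp53 counts.

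The H/ACA and C/D members were spread over the libraries in different ways. H/ACA members held 1.28% and 0.498% of NTSH counts and 1.35% and 0.218% of Shp53 counts, so both first replicates were high, both second replicates were low, and the groups overlapped (exact permutation p = 1.0). Their ratio of replicate 1 to replicate 2 was 2.57 in NTSH and 6.20 in Shp53. C/D members held 0.830% and 0.492% of NTSH counts and 0.348% and 0.234% of Shp53 counts, with both Shp53 libraries below both NTSH libraries. The C/D means were 0.661% ± 0.239 and 0.291% ± 0.0809 (SD, n = 2), with p = 0.33 in the exact permutation test, the smallest that 2 libraries against 2 allow, and p = 1.0 after adjustment for 11 compared shares. The separation rested on 1 RNA. Without SNORD67 the C/D shares were 0.517% and 0.178% in NTSH and 0.268% and 0.209% in Shp53, and the groups overlapped. Without SNORD67 and SNORD89 they were 0.183%, 0.121%, 0.138% and 0.147%, close to each other in all libraries.

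**Figure D1:**
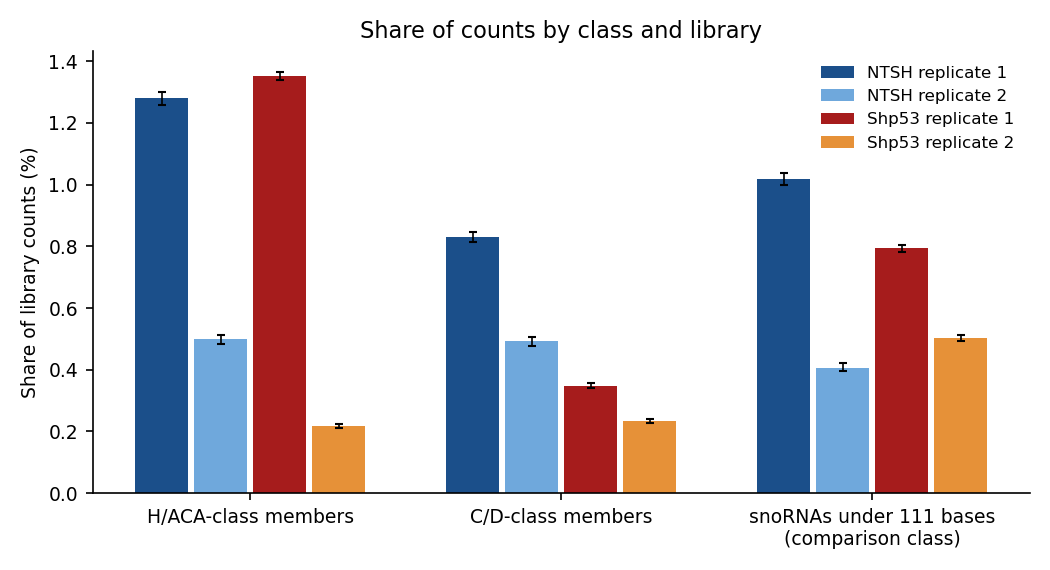
Share of all library counts in percent (y axis) on H/ACA members, C/D members and snoRNAs under 111 bases, with 1 bar per library and 95% Wilson intervals that cover counting error only. H/ACA members reach 1.28% and 1.35% in the first replicates and 0.498% and 0.218% in the second, while C/D members are lower in both Shp53 libraries (0.348% and 0.234%) than in both NTSH libraries (0.830% and 0.492%).

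A few members held most of the counts. Of 86044 counts on members in all, the 5 leading ones (the RF00393 copy on chromosome 17, SNORD67, SNORD89, SNORA3A and SCARNA22) held 52.1%, while the median member had 110.5 counts. The 5 leading members of each library held 61.4% and 55.8% of its member counts in NTSH and 59.3% and 41.5% in Shp53. They were not the same RNAs throughout: the RF00393 copy led NTSH replicate 1 and Shp53 replicate 1, SNORD67 led NTSH replicate 2, and SNORD89 led Shp53 replicate 2, where SNORD94, SNORD15A, SCARNA7 and SNORD67, all of the C/D class, followed. Per kilobase of bases of their own, SNORD67 (20165 CPM per kb, mean of the 4 libraries) and SNORD89 (17002 CPM per kb) also stood first. They were followed by the RF00393 copy (15625 CPM per kb), SNORA3A (11135 CPM per kb) and SCARNA22 (7206 CPM per kb), and the spread of each over the libraries was larger than the steps between neighbours in this order.

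SNORD67, a C/D guide for the U6 snRNA in an intron of CKAP5, had the lowest log2 change and the smallest unadjusted edgeR p of the members tested. Its counts were 3440 and 2949 in NTSH replicates 1 and 2 and 2102 and 483 in Shp53 replicates 1 and 2. As shares of library counts these were 0.313% and 0.314% in NTSH against 0.0805% and 0.0249% in Shp53. The NTSH libraries held nearly the same share, which was not so for the RF00393 copy (0.343% and 0.0670% in NTSH) or SNORD89 (0.334% and 0.0574%), and both Shp53 libraries were lower. In CPM the means were 3998 ± 1523 and 479 ± 385 (SD, n = 2). The log2 change was −3.06 by edgeR's quasi-likelihood test, with an unadjusted p of 0.0239 and a Benjamini-Hochberg adjusted p of 0.283 over 2780 features. Its SE of 1.01 was computed apart from that test, from the replicate spread of log2 CPM. The change stayed below 0 when any library was left out, from −4.13 without Shp53 replicate 1 to −2.14 without Shp53 replicate 2. In the DESeq2 Wald test its adjusted p was 0.0989.

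SNORD89, a C/D RNA with no settled target that overlaps an exon of some RNF149 transcripts, had 3678 and 539 counts in NTSH and 3393 and 1198 in Shp53. NTSH replicate 1 was far above the rest in CPM, at 5425 against 534, 1212 and 514, and the groups overlapped. Its log2 change was −1.79 (SE 1.78), but 0.53 without NTSH replicate 1. SNORD94, another C/D guide of U6 in an intron of PTCD3, had 444 and 266 counts in NTSH and 1188 and 885 in Shp53. As shares, its 0.0455% and 0.0456% in Shp53 lay just above the 0.0404% and 0.0283% in NTSH, but in CPM the groups overlapped (459 ± 277 against 402 ± 31.8, SD, n = 2; log2 change −0.19). Among the 10 C/D members tested, SNORD94 was thus 1 of 3 that were higher by share without overlap. SNORD67 was 1 of 3 that were lower. Of all features tested, 33.2% were higher by share without overlap and 12.7% were lower, so 3 of 10 higher is near that background.

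SNORD15A and SNORD15B, C/D guides of 28S ribosomal RNA, lie in the same host gene, RPS3, which encodes a protein of the small ribosomal subunit. SNORD15A had 440 and 233 counts in NTSH and 793 and 574 in Shp53, and its groups overlapped both by share and in CPM. SNORD15B had 493 and 330 counts in NTSH and 605 and 332 in Shp53, and its groups did not overlap, with 527 ± 283 CPM in NTSH and 179 ± 52.2 in Shp53 (SD, n = 2; log2 change −1.56, SE 0.65, adjusted p = 0.661 by edgeR). SNORD17, a C/D RNA of 237 bases in an intron of SNX5, was also lower without overlap, with 172 ± 85.7 CPM against 50.1 ± 2.37 (SD, n = 2).

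**Figure D2:**
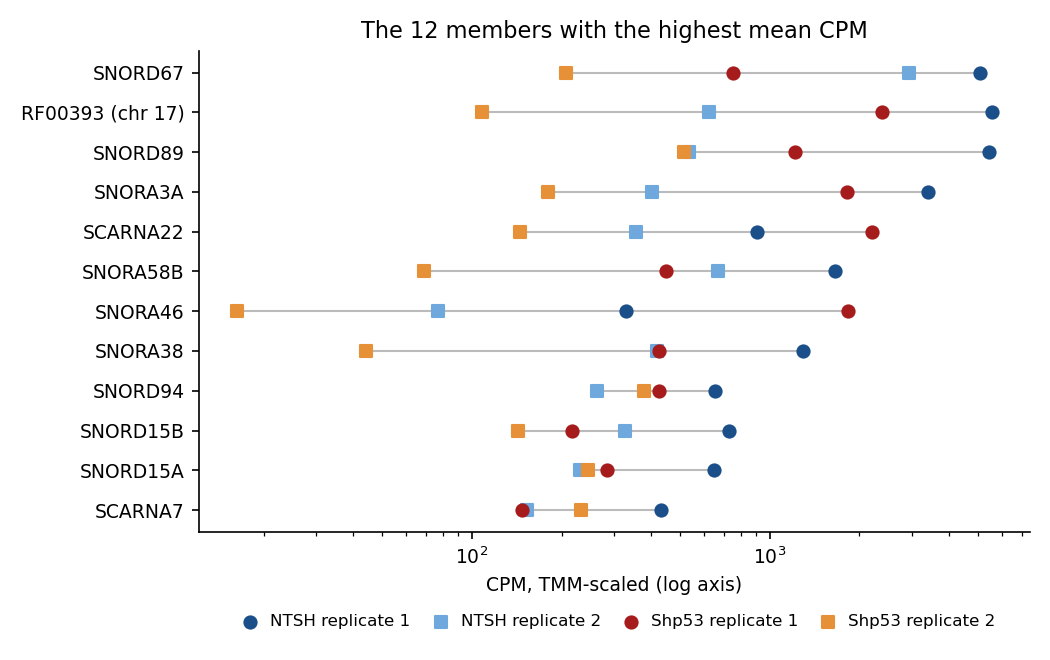
CPM after TMM scaling (x axis, log scale) of the 12 members with the highest mean CPM, with 1 point per library and a line from the lowest to the highest library. SNORD67, SNORA58B and SNORD15B have both Shp53 points below both NTSH points, while SNORA46 is highest in Shp53 replicate 1, at 1827 CPM.

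Among H/ACA members the RF00393 copy on chromosome 17 had the most counts, 3775 and 629 in NTSH and 6684 and 252 in Shp53. It lies in an intron of AC007448.4, annotated as an antisense transcript, and matched SNORA8 at 130 of 139 bases (93.5%) with 9 substitutions. SNORA8 itself, a guide of 28S ribosomal RNA in the host gene TAF1D, had no base outside other features and no count, so fragments of the one cannot be set against those of the other. Fragments from stretches where both sequences match could come from either. Whether counts on the copy include fragments of SNORA8 was not tested. SNORA3A, a guide of 28S ribosomal RNA that overlaps an exon of some transcripts of RPL27A, had 2300 and 405 counts in NTSH and 5085 and 419 in Shp53. In both RNAs each first replicate was above each second replicate, and the groups overlapped (log2 changes of −1.31, SE 2.73, and −0.93, SE 2.27).

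SCARNA22, an H/ACA scaRNA in an intron of NSD2, and SNORA46, in an intron of CNOT1, were highest in Shp53 replicate 1. SCARNA22 had 616 and 358 counts in NTSH, 6143 in Shp53 replicate 1 and 338 in Shp53 replicate 2. SNORA46 had 224 and 78 counts in NTSH, 5115 in Shp53 replicate 1 and 38 in Shp53 replicate 2. The 2 Shp53 libraries lay on either side of both NTSH libraries for each RNA. The log2 change of SNORA46, 2.18 (SE 3.51), was the highest of all members tested, but turned to −3.46 without Shp53 replicate 1, and that of SCARNA22, 0.89 (SE 2.07), turned to −1.97.

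SNORA7A, a guide of 28S ribosomal RNA that overlaps an exon of some RPL32 transcripts, followed the libraries in the way of SNORD67. Its counts were 333 and 334 in NTSH and 234 and 81 in Shp53, which are 0.0303% and 0.0356% of NTSH counts and 0.00896% and 0.00417% of Shp53 counts. The CPM were 411 ± 113 and 59.2 ± 34.6 (SD, n = 2), with a log2 change of −2.79 (SE 0.68) and an edgeR adjusted p of 0.385. By the Euclidean distance between log2 CPM values centred on their mean over the 4 libraries, it was the member nearest to SNORD67 (0.613), before SNORA58B (0.990) and SNORA38 (1.44). SNORA7B, identical to SNORA7A at 98.6% of bases, had no base outside other features and no count. Whether counts on SNORA7A include fragments of SNORA7B was not tested. SNORA58B had 1120 and 678 counts in NTSH and 1258 and 161 in Shp53, lower without overlap in CPM (1162 ± 693 against 259 ± 269, SD, n = 2). SNORA38 had 879 and 421 counts in NTSH and 1189 and 103 in Shp53, and Shp53 replicate 1 (425 CPM) fell just above NTSH replicate 2 (417 CPM), so its groups overlapped.

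Across the members, 73 of 108 passed edgeR's filter on low counts and 35 did not. None of the 73 passed an adjusted p of 0.05 in edgeR's quasi-likelihood test, nor did any of the 2780 features tested (0.0%). The DESeq2 Wald test called 0 members, where it called 29 of all features (1.04%), and limma voom called 0 members. At an unadjusted p under 0.05, 0 members were higher in Shp53, against 4.35% of all features, and 4 were lower (SNORD67, SNORA7A, SNORA79 and SCARNA10), against 7.81%; 4 of 73 is a share near that background. The groups did not overlap in CPM for 23 members that were lower and 2 that were higher (SNORA10B and the RF00096 copy on chromosome 3), where 18.6% and 22.9% of all features did so. On raw shares of counts, 16 of the 73 members were lower without overlap (21.9%) and 5 were higher (6.85%), against 12.7% and 33.2% of all features. The 43 snoRNAs under 111 bases that were tested were much alike, with 10 lower by share (23.3%) and 3 higher (6.98%). In CPM, 13 of these 43 were lower without overlap and 0 were higher. Members that passed the filter through 1 group alone had to differ, so these counts are a description.

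The fitted log2 changes of the 73 members had a median of −1.20, with 60 below 0, where all features had a median of 0.05 and 48.6% below 0. The median was −1.23 over 59 H/ACA members and −0.68 over 10 C/D members, and −0.78 over the 43 shorter snoRNAs tested. Of these shorter snoRNAs, 34 were below 0. With library totals in place of TMM, all features shifted to a median of 0.49. Relative to the median of all features, the members' median was −1.25 with TMM, −1.20 with DESeq2 size factors and −1.03 with library totals. This relative median shrank most, to −0.23, without NTSH replicate 1. The members' median was then 0.23 and the all-feature median 0.46, over the 88 members and 5398 features that passed the filter. Without Shp53 replicate 2 the members' median was −0.39 and the all-feature median 0.12, with a relative median of −0.51. The relative median was −2.10 without NTSH replicate 2 and −1.74 without Shp53 replicate 1. In NTSH replicate 1, 19 of the 73 members (26.0%) had at least 3 times the CPM of every other library, SNORD89, SNORA38 and SNORA5A among them, against 3.74% of all features. The same held for 1 member in NTSH replicate 2, 2 members in Shp53 replicate 1 (SNORA46 and RF00568) and 0 members in Shp53 replicate 2, where 2.99%, 2.45% and 2.59% of all features did so.

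**Figure D3:**
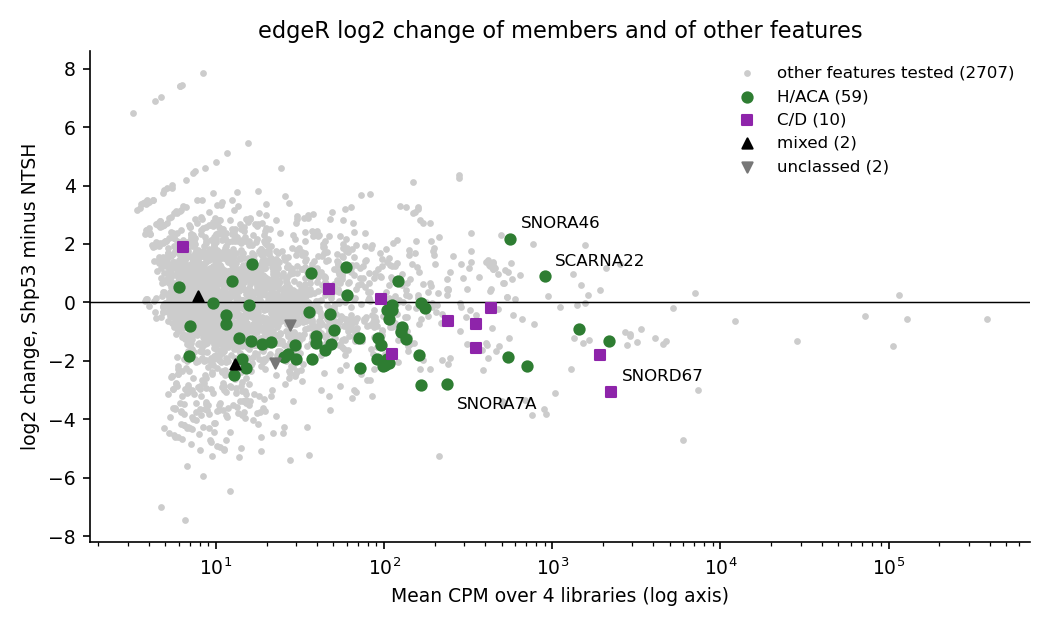
edgeR log2 change, Shp53 minus NTSH (y axis), against mean CPM over the 4 libraries (x axis, log scale), for 73 members by box class and for the other 2707 features tested. Most members lie below 0 (60 of 73), SNORD67 has the lowest value of the members at −3.06, and SNORA46, highest in Shp53 replicate 1, has the highest at 2.18.

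The members also moved with the replicate number. The raw share was higher in replicate 1 of both groups for 48 of the 73 members (65.8%), against 24.2% of all features tested. It was higher in replicate 2 of both groups for 3 members, against 1089 of 2780 features. Of 59 H/ACA members 41 were higher in both first replicates, and 5 of 10 C/D members. The summed share of snoRNAs under 111 bases was also higher in replicate 1, at 2.50 times that of replicate 2 in NTSH and 1.58 times in Shp53. What the replicates of a number share is not in the labels, and its part in these values was not tested.

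The other members with the smallest p were of low level. SNORA79 had 25 and 7 counts in NTSH and 15 and 5 in Shp53 (log2 change −2.48, SE 1.22, unadjusted p = 0.0324 by edgeR). SCARNA10, a mixed C/D and H/ACA scaRNA of U5 in an intron of NCAPD2, had 22 and 10 counts in NTSH and 16 and 9 in Shp53 on the 82 of its 330 bases that no other feature covers (log2 change −2.10, SE 0.83, unadjusted p = 0.0419 by edgeR). Their raw counts overlapped between groups, while both Shp53 libraries were deeper than both NTSH libraries. By share, SNORA79 and SCARNA10 were each lower in Shp53 without overlap. Without NTSH replicate 1 the log2 changes fell in size to −1.02 and −1.18. The RF00265 copy on chromosome 17, intergenic and nearest to SNORA69 (83.9% of bases), had 28 and 9 counts in NTSH and 5 and 20 in Shp53 (log2 change −2.25, SE 1.35, unadjusted p = 0.0600 by edgeR). Its groups overlapped by share, in CPM NTSH replicate 2 (8.91) lay just above Shp53 replicate 2 (8.58), and the change was −0.90 without NTSH replicate 1. SNORA31B, in the host TPT1, had 10 and 7 counts in NTSH and 7 and 8 in Shp53, lower without overlap in CPM. In the other direction, SNORA10B had 6 and 10 counts in NTSH and 57 and 25 in Shp53, or 9.38 ± 0.746 against 15.5 ± 6.82 CPM (SD, n = 2), with an edgeR adjusted p of 0.795.

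By place in the genome, 79 members lay inside a host gene on the same strand, 69 of these in protein-coding genes. Of the 79, 61 lay in introns of every host transcript and 18 overlapped an exon of some host transcript. Hosts of translation (ribosomal proteins, initiation and elongation factors) held 17 members. A further 10 members lay on the opposite strand of a gene only, and 19 were intergenic. Members with a host held 92.1% and 93.9% of member counts in NTSH and 92.2% and 80.8% in Shp53. The median log2 change was −1.32 over 54 tested members with a host and −0.10 over 19 without one, given as a description.

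Members of the same host differed in level to different degrees. In RPS3, SNORD15A had 2040 counts in all and SNORD15B 1760, nearly the same. In RPL27A, SNORA3A had 8209 counts in all and SNORA3B 283, and their replicate patterns differed: SNORA3B had 51 and 58 counts in NTSH and 74 and 100 in Shp53, with no rise in the first replicates. In TPT1, SNORA31 had 98 and 40 counts in NTSH and 773 and 60 in Shp53, against 32 counts in all on SNORA31B. In TBRG4, SNORA5A had 347 and 72 counts in NTSH and 184 and 39 in Shp53, and SNORA5C 56 and 37 against 33 and 44, both lower in CPM without overlap. The pairs in KANSL2 (SNORA2A with 29 counts, SNORA2B with 19) and CCT6A (SNORA15 with 40, SNORA22B with 18) were too low to be tested.

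Lists of known RNAs were then read by role, each limited by how many of its genes could receive counts. Of 11 guides of 18S ribosomal RNA, 5 had bases of their own and 4 were members (SNORA13, SNORA20, SNORA28 and SNORA66). Of the 3 tested, 0 passed an unadjusted p of 0.05 in either direction. SNORA66, in an intron of RPL5, was the highest, with 195 and 50 counts in NTSH and 410 and 43 in Shp53. Of 15 guides of 28S ribosomal RNA, 11 had at least 1 base of their own and 5 were members (SNORA3A, SNORA3B, SNORA7A, SNORA52 and SNORA68), of which 1 was lower at an unadjusted p under 0.05 (SNORA7A) and 0 higher, beside 7.81% and 4.35% of all features. SNORA52, in the host RPLP2, had 105 and 83 counts in NTSH and 83 and 48 in Shp53, with 119 ± 51.4 CPM against 25.1 ± 6.41 (SD, n = 2), a log2 change of −2.23 and an edgeR adjusted p of 0.439. SNORA73A and SNORA73B, which act in the cleavage of the ribosomal precursor, had no count on the 1 base that was theirs alone.

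Members named SCARNA held 0.0948% and 0.0668% of NTSH counts and 0.264% and 0.0507% of Shp53 counts, with overlap, and SCARNA22 in Shp53 replicate 1 made up most of the highest value. Of 11 listed scaRNAs of the H/ACA type, 7 had at least 1 base of their own and 2 were members, SCARNA22 and SCARNA8. SCARNA18 and SCARNA27, members also of the H/ACA class, were not on that list. SCARNA8, in an intron of HAUS6, had 36 and 56 counts in NTSH and 102 and 29 in Shp53, or 53.1 and 55.5 CPM against 36.4 and 12.4, lower without overlap but with an edgeR adjusted p of 0.715. By raw share its groups overlapped. Of 8 listed scaRNAs with a C/D part, 6 had at least 1 base of their own and 3 were members. SCARNA7, in an intron of KPNA4, had 293 and 155 counts in NTSH and 414 and 541 in Shp53, and was the only named scaRNA with more counts in Shp53 replicate 2 than in replicate 1 apart from SCARNA28. SCARNA12, counted on 31 bases of its own, had 8 and 3 counts in NTSH and 22 and 20 in Shp53, higher without overlap by share but not in CPM. SCARNA18 had 30 and 17 counts in NTSH and 42 and 20 in Shp53, and was lower without overlap in CPM. SCARNA27 had 37 and 25 counts in NTSH and 152 and 20 in Shp53, and its groups overlapped. SCARNA28 had 1 and 3 counts in NTSH and 4 and 7 in Shp53 and was not tested.

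Features over the genes of the machinery could be read for some genes only. Of 10 genes of the H/ACA particle and its assembly, 5 had a feature in the table, and these held 39 counts in all 4 libraries. DKC1, which encodes dyskerin, was among the genes of this list without a feature. Of 11 host RNAs of snoRNAs, 4 had a count, 38 in all, most of them on SNHG7 (6, 0, 19 and 9 counts). Features over the genes of U3, a long C/D RNA of ribosomal precursor cleavage, held 14 counts in all, and U8 (SNORD118), with 1 base of its own, held 0. Of the listed genes of U3, SNORD3D had 0 bases of its own. How reads that match more than 1 place were counted is not stated, so these counts do not give the level of U3.

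Many counts lay on copies that resemble a known gene. Of the members, 30 carried only a family label. The 3 members nearest to SCARNA16, an H/ACA scaRNA, are given next to it, with capitals at bases that do not match SCARNA16 (bases missing from a copy leave no mark). They lie at chr1:101133153-101133339 (plus strand), chr2:53470447-53470629 (minus strand) and chr1:9082696-9082879 (plus strand), and SCARNA16 at chr17:77089307-77089493 (plus strand).
SCARNA16: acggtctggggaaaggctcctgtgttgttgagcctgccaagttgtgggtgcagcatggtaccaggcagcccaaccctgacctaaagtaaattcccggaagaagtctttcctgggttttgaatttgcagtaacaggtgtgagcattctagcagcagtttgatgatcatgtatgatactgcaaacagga
RF00424 copy 1: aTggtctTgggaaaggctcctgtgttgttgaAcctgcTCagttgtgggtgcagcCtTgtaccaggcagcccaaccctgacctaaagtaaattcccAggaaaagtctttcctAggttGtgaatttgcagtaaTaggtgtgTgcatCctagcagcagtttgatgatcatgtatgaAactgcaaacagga
RF00424 copy 2: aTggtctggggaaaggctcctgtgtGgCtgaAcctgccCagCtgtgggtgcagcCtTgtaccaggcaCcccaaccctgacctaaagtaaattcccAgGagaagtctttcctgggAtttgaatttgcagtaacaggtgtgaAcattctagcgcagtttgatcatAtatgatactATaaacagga
RF00424 copy 3: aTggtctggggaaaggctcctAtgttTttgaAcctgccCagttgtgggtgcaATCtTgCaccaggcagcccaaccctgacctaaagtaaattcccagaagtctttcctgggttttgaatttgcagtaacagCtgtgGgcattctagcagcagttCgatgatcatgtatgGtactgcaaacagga

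The 3 copies, which match SCARNA16 at 92.5%, 91.3% and 92.4% of their own bases, had nearly the same counts in every library. They had 142, 149 and 141 counts in NTSH replicate 1, 22, 24 and 18 in NTSH replicate 2, 398, 374 and 371 in Shp53 replicate 1 and 170, 161 and 134 in Shp53 replicate 2. SCARNA16 itself had no base outside other features and no count. The copies match each other at 88.2% to 89.8% of bases. Whether they share reads was not tested, and they are no replicates of each other.

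In other families the copies differed. Among 10 copies near SNORA70, a guide of 18S ribosomal RNA, 5 had similar counts. These were the copies on chromosomes 21, 8, 17 and 12 and SNORA70I, with 153 to 190 counts in NTSH replicate 1, 56 to 83 in NTSH replicate 2, 47 to 130 in Shp53 replicate 1 and 118 to 146 in Shp53 replicate 2. The family held 0.0851% and 0.0364% of NTSH counts and 0.0177% and 0.0364% of Shp53 counts, so Shp53 replicate 1 was the lowest. The 4 copies near U8 (SNORD118, a C/D RNA of ribosomal precursor cleavage) held 0.0148% and 0.00373% of NTSH counts and 0.0166% and 0.0209% of Shp53 counts. By this raw share both Shp53 libraries were above both NTSH libraries, as were 33.2% of all features tested. Of their 1036 counts, 636 lay on the copy on chromosome 9, with 105 and 28 in NTSH and 229 and 274 in Shp53. Its groups overlapped by share and in CPM. The copy on chromosome 11 had 3 and 3 counts against 3 and 1, lower without overlap. The copy on chromosome 5 had 51 and 4 counts in NTSH and 163 and 116 in Shp53, higher without overlap by share but not in CPM. The copy on chromosome 3, higher without overlap by both measures, had 4 and 0 against 38 and 14. This copy on chromosome 3 had the largest fitted rise among members without overlap, 1.90 (SE 1.40), with an edgeR adjusted p of 0.572. The 3 copies near SNORA67 had 77 and 17 counts in NTSH and 721 and 20 in Shp53 in all, high in the first replicates. The copies on chromosomes 7 and 8 carried this, while the copy on chromosome 1 had 6 and 0 counts in NTSH and 4 and 6 in Shp53. SNORA10 and SNORA10B, identical at 98.5% of bases, did not move together: SNORA10 had 62 and 23 counts in NTSH and 32 and 75 in Shp53, counted on the 40 bases that are its own.

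**Figure D4:**
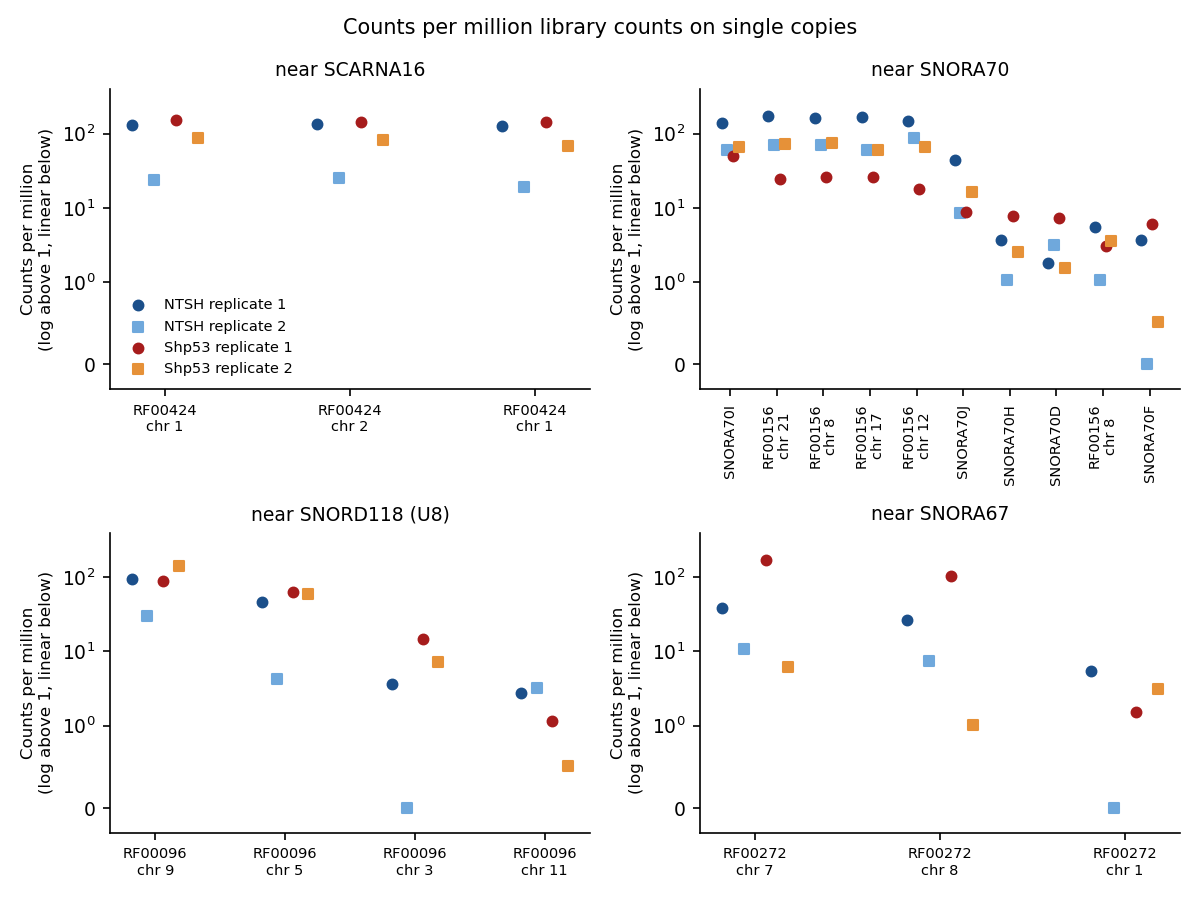
CPM on raw library totals, without TMM scaling (y axis, linear below 1 and log above), on the copies of 4 families, with 1 point per library. The 3 copies near SCARNA16 repeat the same order of libraries with NTSH replicate 2 lowest, 5 copies near SNORA70 have Shp53 replicate 1 lowest, and the 3 copies near SNORA67 and the 4 copies near SNORD118 differ in level among themselves.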

How the data were processed

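The submitters' processing notes name GRCh38, Subread 1.6.3, BWA 0.7.17 and bcl2fastq 2.19, with no settings. The authors deposited counts, whole numbers of reads per RNAcentral feature that are not normalized, with an annotation. The members, lists and tests were chosen with earlier results of these data known. Members were named by GENCODE 29 genes on the same coordinates (97), else by RefSeq (8), and 3 had no name. Copies were placed with blastn 2.17.0; copies of a family share at least 80% of bases. Groups were compared by the quasi-likelihood test of edgeR 4.0.16 (R 4.3.3) on all features. It used TMM, edgeR's filter on low counts and Benjamini-Hochberg adjustment at 0.05. The test was also run on simulated data with a replicate spread far below that of these libraries. That run therefore does not show the power of the test here. The SE was computed apart from the edgeR fit, from the replicate spread of log2 CPM in each group, with a prior count of 2. Shares of counts were tested by exact two-sided permutation, with 95% Wilson intervals, which cover counting error only and were at most 0.0113 percentage points either way for a single member. Alternatives were DESeq2 1.42.0 size factors and Wald test, library totals, limma 3.58.1 voom, other filters, a replicate block, other member rules and each library left out; the alternatives for the C/D and H/ACA shares were added after the data were examined. Members named are the 12 with the highest mean CPM, up to 6 per direction with the smallest unadjusted p and no overlap in CPM, all named SCARNA, up to 4 of each list, those at the count limit and the 3 most like SNORD67. Members of families and shared hosts, SNORD17, SNORD23 and SNORA5A were chosen after their values were seen.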

Additional observations from a re-analysis of the deposited data

How the results depend on the processing

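Of 301 values of the 28 named members tested, over all alternatives, 270 kept their sign, and 31 changed it in 12 members. The count of members past an adjusted p of 0.05 was 0 under every alternative except the replicate block. The replicate numbers were not shown to pair the libraries: the difference of replicate 1 and 2 in NTSH correlated with that in Shp53 at r = 0.395 across 2780 features, which are not independent. With the replicate number as a block, 1 member was called, SNORD67 (log2 change −3.29, edgeR adjusted p = 0.0345), with 103 of 2780 features (3.71%), and 11 members, in place of 4, were lower with p under 0.05 before adjustment, beside 7.84% of all features. That count of 4 became 1 with library totals, 0 with no filter and 1 at a mean CPM of at least 10, and 0 to 9 when a library was left out. The count of 0 that were higher became 1 with library totals, 5 with no filter and 0 to 3 when a library was left out. The members' median log2 change ranged from −1.81 to 0.23 with 1 library left out. It was −0.05 with no filter, where all features had 1.38 and the C/D median turned to 0.20. The share of library counts on members differed by −0.477 percentage points (Shp53 minus NTSH), and by −1.10 to 0.147 when a library was left out: 0.0849 without NTSH replicate 1 and 0.147 without Shp53 replicate 2. The H/ACA share differed by −0.104, and by −0.671 to 0.463, with 0.286 and 0.463 without the same libraries. The members' share of snoRNA and guide RNA counts differed by −10.8, but by 2.02 for members named SNORA or SCARNA. The C/D share stayed lower in Shp53 under each alternative run, by −0.00886 without SNORD67 and SNORD89. Leaving out a library leaves its group with 1 sample, assumed to vary like the other group. Depth limits members of low counts most: 35 were not tested.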
